A study of Homo sapiens with 18 samples.

Results

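The MYC network genes described here are 9 rows of the deposited table of normalized counts: MYC, MYCN, MAX, MXD1, MXD3, MXD4, MXI1, MNT and MGA. They were chosen by name, as the listed MYC, MAX and MXD family members, out of 55765 gene symbols. All 9 passed the filter for testing, a mean of at least 10 normalized counts over the 18 libraries, which 16154 genes passed. MYCN, at a mean of 10.9, passed only through its treated WT and F2 libraries, so counts over the members are also given without it. The cells were G401, an established malignant rhabdoid tumour line. The control line, written WT, had been edited with CRISPR/Cas9 at the AAVS1 safe harbour site and kept RB1. E1 and F2 are single clones in which both copies of RB1 had been disrupted; its protein binds E2F factors and holds back entry into the cell cycle. Each line was grown for 11 days with 10 µM tazemetostat, which blocks EZH2, the enzyme that methylates histone H3 at lysine 27, or with its solvent DMSO, which gave 6 groups of 3 libraries that the labels call biological triplicates. Nothing in the labels says how the cultures of a triplicate were kept apart, so p-values measure the spread between these libraries. Because each RB1-null line is 1 clone, a difference from WT cannot be told apart from a difference between clones.

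MYC and MYCN are transcription factors that bind the DNA word CACGTG, the E-box, as pairs with MAX and raise the transcription of genes for growth, ribosome assembly, metabolism and division. MXD1, MXD3, MXD4, MXI1 and MNT also pair with MAX at E-boxes, where they recruit SIN3 and histone deacetylases and lower transcription. MGA is a large partner of MAX that belongs to a Polycomb complex, PRC1.6. Rhabdoid tumours lack the SWI/SNF subunit SMARCB1, which is known to bind MYC.

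The 250 bases before the transcription start are shown for the 3 members whose RNA varied most between the groups (RefSeq, GRCh38.p14, each on the strand of its gene), because most of the larger differences below concern these genes. Capitals mark the words searched, which were CACGTG and 3 words typical of E2F sites, TTTGGCGC, TTTCGCGC and TTTCCCGC, on both strands of windows from 250 bases before to 50 bases after a start. The MYCN run holds TTTGGCGC and, on the opposite strand and overlapping it, TTTCGCGC. The MXD4 run holds CACGTG, and the MXD3 run holds none of the 4 words.
MYCN, chr2:15940300-15940549, plus strand: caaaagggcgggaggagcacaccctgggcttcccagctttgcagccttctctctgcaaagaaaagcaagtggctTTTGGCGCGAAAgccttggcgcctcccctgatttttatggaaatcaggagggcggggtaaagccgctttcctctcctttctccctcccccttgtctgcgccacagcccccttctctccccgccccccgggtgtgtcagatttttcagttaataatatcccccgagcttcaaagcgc
MXD3, chr5:177312753-177313002, minus strand: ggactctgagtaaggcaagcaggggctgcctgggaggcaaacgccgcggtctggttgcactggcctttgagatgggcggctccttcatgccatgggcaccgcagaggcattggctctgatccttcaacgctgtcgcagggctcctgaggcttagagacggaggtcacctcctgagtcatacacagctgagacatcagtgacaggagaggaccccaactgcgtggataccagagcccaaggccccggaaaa
MXD4, chr4:2262110-2262359, minus strand: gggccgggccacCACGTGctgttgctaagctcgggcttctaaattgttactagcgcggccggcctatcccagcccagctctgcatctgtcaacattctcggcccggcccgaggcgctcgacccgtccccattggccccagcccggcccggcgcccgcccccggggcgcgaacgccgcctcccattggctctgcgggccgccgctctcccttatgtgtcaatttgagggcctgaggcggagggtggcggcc

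Windows of 300 bases were found by symbol for 8 members, 13 windows in all. Windows on chromosome 8 were left out, so MYC, which lies there, was not searched. Of the 35116 such windows in the RefSeq promoter table outside chromosome 8, 7.26% held CACGTG and 2.74% held at least 1 of the 3 E2F-type words. Among the members, the single MXD4 and MNT windows held CACGTG, and the MYCN window and 1 of 3 MGA windows held an E2F-type word. The number of CpG pairs in the window was 14 for MYCN and 12 for MXD3, near the median of 14 over all windows, and 37 for MXD4. A match describes the letters and does not show that a factor binds there.

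Depth, recovered from the deposited values, ran from 25709489 to 39314860 reads per library. RB1 transcript was between 505 and 1045 normalized counts in the 12 clone libraries and between 2300.4 and 2828 in the 6 WT libraries, so that the groups did not overlap. No library held a read of SMARCB1, which rhabdoid cells lack, and VIM, a mesenchymal marker, was at 27410 counts or more throughout. Of the markers of other cell types, the immune genes summed to at most 7.26 counts, while the endothelial genes VWF and CDH5 summed to 0.946 to 8.93 counts with DMSO and 27.1 to 65.6 with tazemetostat. PECAM1 was not analysed here. Epithelial genes summed to 16.1 to 294 counts with DMSO and 119 to 461 with tazemetostat, and neuronal genes to 279 to 344 and 180 to 247. The larger sums were mostly CDH1 and SYP. CDH1 reached 422 counts, EPCAM at most 19.5 and KRT20 at most 32.0, while SYP ranged from 165 to 344 and RBFOX3 reached at most 18.2. Hepatocyte genes summed to 3.79 to 20.5 counts with DMSO and 5.65 to 24.6 with tazemetostat. The epithelial sum also differed between lines: with DMSO it was 244 to 294 in WT, 16.1 to 36.0 in E1 and 132 to 186 in F2. In this bulk RNA, fewer cells of a type and less RNA per cell cannot be told apart. The part of these shifts in the results on the MYC network was not tested.

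Libraries of clone E1 stood apart in how their values followed the GC content of transcripts. Relative to the mean of all libraries, log2 values changed by 0.18 per 10 percentage points of GC in E1 DMSO replicate 2, and by -0.16, -0.21 and -0.16 in E1 DMSO replicate 3 and E1 tazemetostat replicates 2 and 3, against -0.03 to 0.12 in the other 14 libraries. MXD3, MXD4 and MNT have GC-rich transcripts, at 62.8%, 61.0% and 60.6% GC, and MGA is at 42.7%. Values after centring by GC content, an alternative chosen after seeing the data, or without the library concerned, are given below for many cases. These are cases where they changed a call or moved a called value by over 1.5 times, and not all are listed. Among those not given below, GC centring called MXD1 and MXI1 in E1 against F2 with tazemetostat (limma, adjusted p = 0.00886 and 0.00368). It also called MNT in F2 against WT with DMSO (0.0469) and the MYC response of F2 minus WT (0.0321). Without E1 DMSO replicate 2, MXD3 was called in E1 against WT with DMSO (0.0472).

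Levels can be compared between genes after division by length. In WT with DMSO, per kilobase of merged exons (GENCODE v29), MYC was the most abundant member at 1096 ± 37.3 normalized counts (SD, n = 3), followed by MXD4 at 785 ± 26.1, MAX at 290 ± 4.05, MNT at 267 ± 9.33, MXD1 and MXI1 at 172 ± 3.27 and 172 ± 9.17, MGA at 157 ± 13.7 and MXD3 at 116 ± 7.70. The ranges of MXD1, MXI1 and MGA overlapped, and the other neighbours in this order did not. The order depended on the length used: per kilobase of the median transcript, MXD4 came first at 5102 and MYC second at 2410. MYCN had no read in this group.

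**Figure D1:**
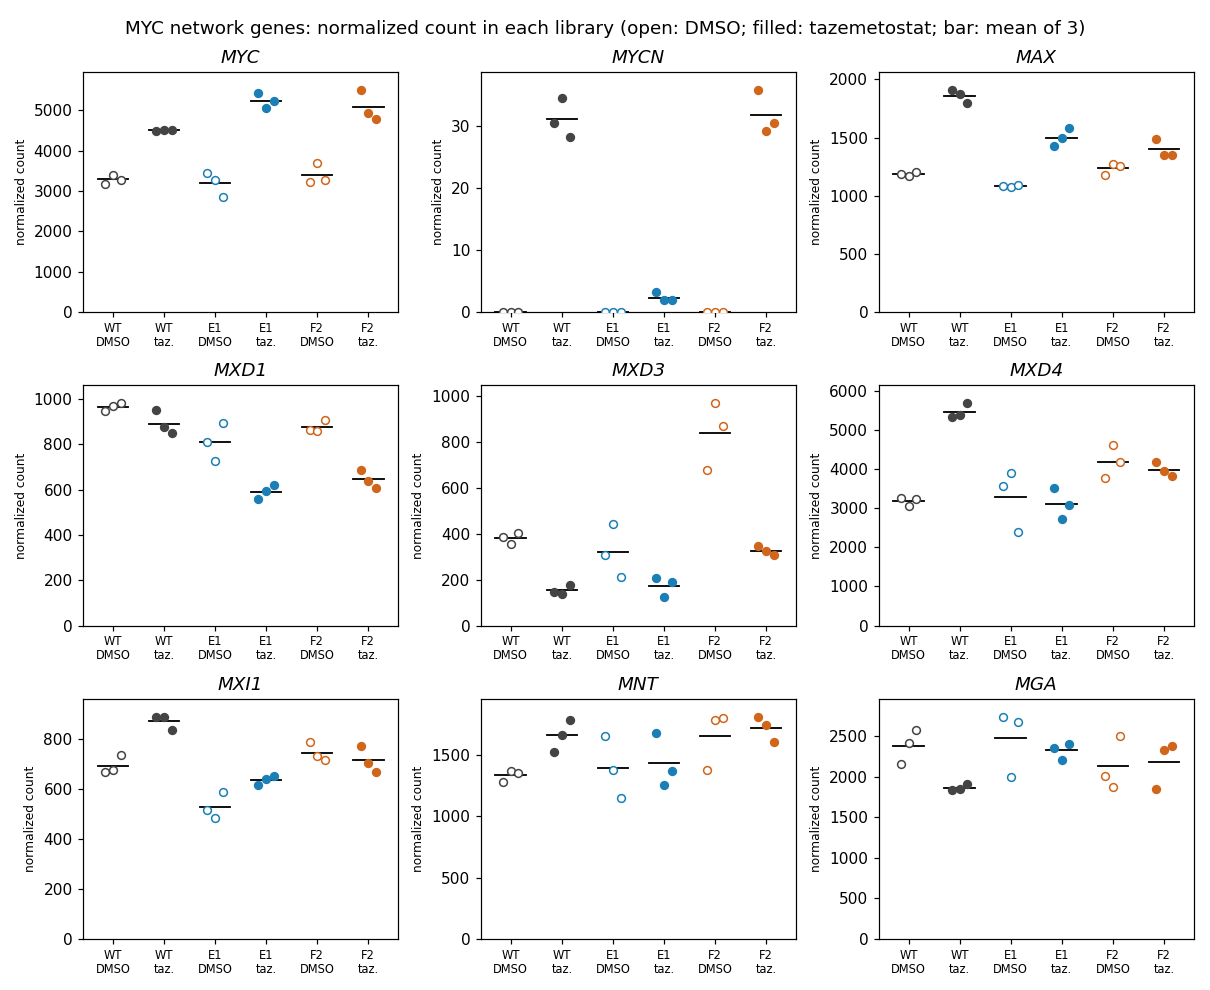
Normalized count (linear axis from 0, a separate scale per gene) of the 9 MYC network genes in each of the 18 libraries, with open points for DMSO, filled points for tazemetostat and a bar at the mean of 3. MYCN is at 0 in every DMSO library and near 30 in WT and F2 with tazemetostat but at most 3.19 in E1, and MXD4 reaches 5348 to 5689 in WT with tazemetostat, above every other library.

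The first comparison asked how each line responded to EZH2 inhibition. MYC and MAX, the activating pair, rose with tazemetostat in all 3 lines, and MXD3, one of the repressing partners, fell in all 3. MYCN went from no read to about 31 normalized counts in WT and about 32 in F2, and reached only 2.34 in E1. MXD4, MNT and MGA changed past the threshold in WT and were not called in the clones, and MXD1 changed in both clones and was not called in WT. The test of the response itself called a difference from WT for MXD4 and MXD1, given below, and none for MNT (-0.26 in E1 and -0.24 in F2, limma adjusted p = 0.27 and 0.347) or MGA (0.28 and 0.39, adjusted p = 0.229 and 0.107). Called means a Benjamini-Hochberg adjusted p under 0.05 by limma at any size of change, on log2(normalized count + 1).

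In WT, 8 of 9 members were called, 6 higher and 2 lower, where 64.2% of all tested genes were called, 34.8% higher and 29.4% lower. In E1, 6 of 9 were called, 4 higher and 2 lower, against 46.8% of all genes, 27.1% higher and 19.7% lower. In F2 it was 5 of 9, 3 higher and 2 lower, against 52.2%, 29.0% higher and 23.2% lower. Without MYCN the counts were 7, 5 and 4 of 8. With so many genes called, these shares do not set the members apart. The median log2 change of the 9 members was 0.33 in WT beside 0.03 over all tested genes, 0.05 in E1 beside 0.02, and 0.04 in F2 beside 0.02; without MYCN it was 0.32, -0.01 and -0.01. With a log2 change of at least 1 also required, MYCN and MXD3 were called in WT, where 21.3% of genes were, and in F2, where 17.0% were, and MYCN in E1, where 15.1% were. The E1 call of MYCN rests on 7 reads, and its log2 change of 1.72 was 0.55 with a pseudocount of 5.

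MYC, the broadly expressed founder of the family, stood at 3179, 3403 and 3287 normalized counts in WT with DMSO and at 4487, 4522 and 4502 with tazemetostat. In E1 it was at 3458, 3281 and 2861 with DMSO and at 5428, 5052 and 5241 with tazemetostat. In F2 it was at 3230.0, 3691 and 3286 with DMSO and at 5515, 4928 and 4798 with tazemetostat. Every treated library lay above every DMSO library of any line. On the log2 scale MYC in WT rose by 0.45 ± 0.07 (SE), in E1 by 0.72 ± 0.07 and in F2 by 0.58 ± 0.07 (limma, adjusted p = 2.35e-05, 1.1e-07 and 1.63e-06), or by 36.9%, 64.2% and 49.3%. The rise in WT was smaller, at 0.27 (adjusted p = 4.46e-05), after GC centring and 0.30 with libraries scaled to the same total. PVT1, a noncoding RNA gene next to MYC, rose by 0.45 ± 0.08 in WT and 0.29 ± 0.08 in F2, while its change in E1, 0.19 from a DMSO level already higher than in WT, was not called.

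MYCN, the family member best known from neuroblastoma and embryonic tissue, had 0 reads in all 9 DMSO libraries. With tazemetostat it reached 30.5, 34.6 and 28.3 normalized counts in WT (31, 37 and 23 reads) and 35.9, 29.3 and 30.5 in F2 (37, 29 and 33 reads). In E1 it was at 3.19, 1.93 and 1.88 counts, from 3, 2 and 2 reads. The WT and F2 libraries overlapped each other and none came near E1. Against a floor of 3 reads per DMSO library, MYCN in treated WT was at least 11.3-fold higher, and in treated F2 at least 9.74-fold higher. E1 stayed at or below that floor in every library, so neither a fold against the floor nor an adjusted p of its change is given. Its log2 change given above depends on the pseudocount. These are low levels: per kilobase of merged exons, the WT libraries with tazemetostat held 10.9 to 13.3 counts of MYCN and 1495 to 1507 of MYC. MYCNOS, the antisense gene of MYCN, had at most 3 reads in a library, and the strand setting of the counting is not given in the sources used here.

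MAX, the shared partner of the other 8 members, was at 1188, 1171 and 1205 normalized counts in WT with DMSO and at 1912, 1872 and 1793 with tazemetostat. It went from 1082, 1072 and 1091 to 1429, 1494 and 1578 in E1, and from 1176, 1275 and 1254 to 1490.3, 1350.4 and 1353 in F2. The treated and DMSO libraries were separate in each line, by the narrowest margin in F2. The rise of MAX measured 0.65 ± 0.06 (log2) for WT, 0.47 ± 0.06 for E1 and 0.18 ± 0.06 for F2 (limma, adjusted p = 1.77e-08, 2e-06 and 0.0166). The F2 call was lost without F2 DMSO replicate 1 (0.14, adjusted p = 0.083), without F2 tazemetostat replicate 1 (0.13, 0.1) and after GC centring (0.11, 0.0558).

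MXD1, a repressor linked to differentiation, was at 946, 969 and 982 normalized counts in WT with DMSO and 950.0, 876 and 849.7 with tazemetostat, where the groups overlapped. In E1 it went from 809.9, 726 and 893 to 561, 593 and 622, and in F2 from 866, 861 and 906 to 688, 639.9 and 609. All 6 treated clone libraries lay below all 6 clone libraries with DMSO. The log2 change was -0.45 ± 0.08 in E1 and -0.44 ± 0.08 in F2 (limma, adjusted p = 0.000103 and 9.44e-05), and -0.12 ± 0.08 in WT, which was not called (adjusted p = 0.204) except with libraries scaled to the same total (-0.27, adjusted p = 0.00484).

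MXD3, the member of the MXD group best known for expression in dividing cells, was at 387, 353 and 403 normalized counts in WT with DMSO and 145, 137 and 176 with tazemetostat. In E1 it went from 308, 443 and 212 to 208, 126 and 187, where the lowest DMSO library lay just above the highest treated one. In F2 it went from 678, 968 and 866 to 346, 323 and 308. For MXD3 the log2 change was -1.32 ± 0.21 (WT), -0.85 ± 0.21 (E1) and -1.35 ± 0.21 (F2; limma, adjusted p = 2.86e-05, 0.00297 and 3.07e-05). These are changes of -59.9%, -44.6% and -60.7%. The 3 calls held in every alternative apart from the size limit, which E1 did not reach.

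MXD4, the most abundant of the MXD genes, was at 3261, 3063 and 3227 normalized counts in WT with DMSO and 5348, 5384 and 5689 with tazemetostat. In E1 it was at 3581, 3912 and 2381 with DMSO and 3519.8, 2729 and 3074 with tazemetostat. In F2 it was at 3771, 4626 and 4194 with DMSO and 4175, 3966 and 3822 with tazemetostat. The WT groups were far apart, whereas treated and untreated libraries of each clone overlapped. The log2 change was 0.78 ± 0.13 in WT (limma, adjusted p = 4.6e-05), a rise of 71.9%, and 0.51 after GC centring. It was -0.06 ± 0.13 in E1 (95% interval -0.34 to 0.22) and -0.07 ± 0.13 in F2 (-0.35 to 0.21), neither of them called. E1 DMSO replicate 3 set the E1 value: without it the change was -0.28 (adjusted p = 0.0188), and in F2 GC centring gave -0.19 (adjusted p = 0.00522).

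MXI1, also called MXD2, was at 669.9, 679 and 738 normalized counts in WT with DMSO and 889.9, 891 and 837 with tazemetostat. It went from 517, 486 and 589 to 618, 641 and 652 in E1, and from 789.8, 732 and 718 to 774, 707 and 671 in F2. Treated libraries lay above untreated ones in WT and E1 and overlapped them in F2. The log2 change was 0.33 ± 0.08 in WT and 0.27 ± 0.08 in E1 (limma, adjusted p = 0.00154 and 0.0102), and -0.06 ± 0.08 in F2, which was not called. The WT value was 0.18 (adjusted p = 0.0491) with libraries scaled to the same total, and the E1 call was lost when only the 2 E1 groups entered the fit (adjusted p = 0.0969).

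MNT, a widely expressed antagonist of MYC, ranged from 1282 to 1368 normalized counts in WT with DMSO and from 1525 to 1784 with tazemetostat, without overlap. Its log2 change of 0.31 ± 0.13 (limma, adjusted p = 0.0408) was the least secure call in WT. The adjusted p rose to between 0.064 and 0.135 without any 1 of the 3 WT DMSO libraries or of WT tazemetostat replicates 2 and 3, to 0.0512 with the replicate number as a block, and to 0.663 after GC centring, where the change was 0.04. The call was also lost with no filter on low values (limma, adjusted p = 0.0663) and with libraries scaled to the same total (0.16, 0.317). In E1 MNT ranged from 1146 to 1654 with DMSO and 1251 to 1678 with tazemetostat, and in F2 from 1379 to 1797 and 1609 to 1812. Those groups overlapped, and neither change was called.

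MGA ranged from 2159 to 2571 normalized counts in WT with DMSO and from 1837 to 1908 with tazemetostat, again without overlap. Its log2 change in WT was -0.35 ± 0.12 (limma, adjusted p = 0.0183), and the call was lost without WT DMSO replicate 3 (-0.29, adjusted p = 0.0757). In E1 it ranged from 1999 to 2739.7 and then 2209 to 2408, and in F2 from 1867 to 2507 and then 1846 to 2373. The changes there, -0.07 ± 0.12 and 0.04 ± 0.12, were not called.

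**Figure D2:**
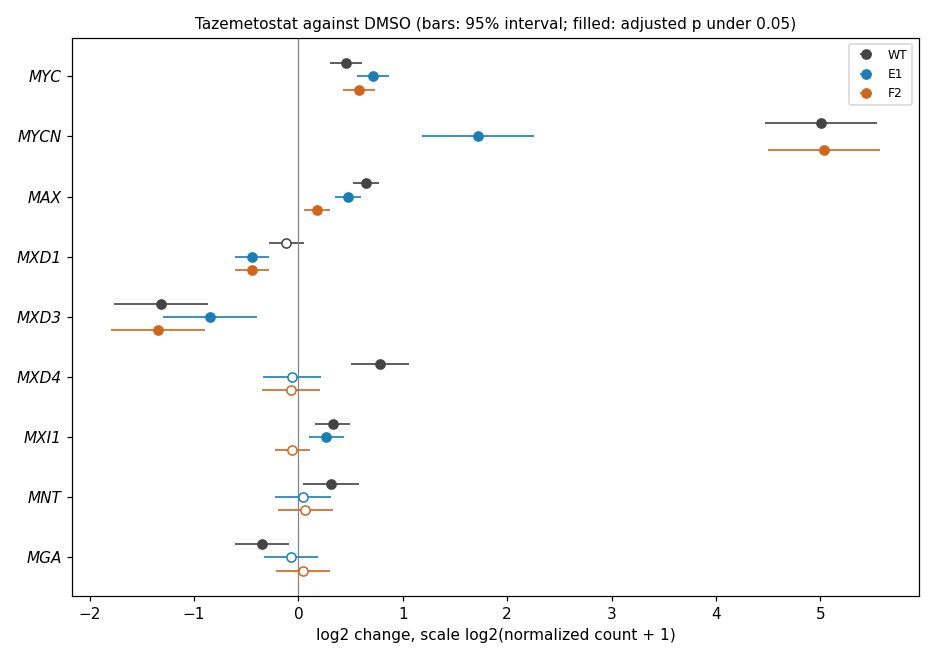
Log2 change with tazemetostat against DMSO (x axis, log2 scale of normalized count + 1) for each member in WT, E1 and F2, with the 95% interval of the limma fit as bars and filled points where the adjusted p was under 0.05. MYC, MAX and MYCN lie to the right in all 3 lines, MXD3 to the left, and MXD4 has 0.78 in WT beside -0.06 and -0.07 in the clones; the MYCN values depend on the pseudocount because its DMSO libraries are at 0.

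The second comparison asked what loss of RB1 changed without drug. Between the clones and WT in DMSO, the number of members called lay near the share over all tested genes. No member was called in both clones. The share of all tested genes called in both clones is not given here, so nothing particular to the members is read from this. MXD1 lay below WT without overlap of libraries in both, at -0.26 in E1 and -0.14 in F2, and was called in E1 (limma, adjusted p = 0.0217 and 0.237). In E1, 2 of 9 were called, both lower, where 23.2% of all tested genes were called, 11.4% higher and 11.7% lower. In F2, 2 of 9 were called, both higher, where 20.2% were, 8.10% higher and 12.1% lower. With a log2 change of at least 1 also required, no member was called in E1, where 5.04% of genes were, and MXD3 alone in F2, where 2.98% were. MYC did not differ past the threshold, at -0.04 ± 0.07 in E1 (95% interval -0.20 to 0.11) and 0.05 ± 0.07 in F2 (-0.11 to 0.20).

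In E1 with DMSO, MXI1 was lower than in WT by a log2 difference of -0.39 ± 0.08 (limma, adjusted p = 0.00131) and MXD1 by -0.26 ± 0.08 (adjusted p = 0.0217). The libraries of E1 and WT, given above, did not overlap for either gene. Both calls were lost when only these 2 groups were fitted (adjusted p = 0.0607 and 0.132). The MXD1 call was also lost without E1 DMSO replicate 2 (-0.18, adjusted p = 0.0963), WT DMSO replicate 2 (-0.26, 0.0613) or WT DMSO replicate 3 (-0.25, 0.0682).

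In F2 with DMSO, MXD3 was 2.17-fold higher than in WT, at a log2 difference of 1.12 ± 0.21 (limma, adjusted p = 0.00103), and the call held in every alternative. The lowest F2 library, at 678 counts, lay above the highest WT library, at 403. MXD4 was higher by 0.39 ± 0.13 (adjusted p = 0.043) with no overlap of libraries. That call was lost without any 1 of the WT DMSO libraries, F2 DMSO replicate 2 or F2 DMSO replicate 3, with adjusted p between 0.0777 and 0.165. Between the clones with DMSO, 4 of 9 members were lower in E1 than in F2 and none was higher, where 37.1% of genes were called, 19.4% higher and 17.7% lower, and 7.56% with a log2 change of at least 1, which MXD3 met. These were MXD3 at -1.43 ± 0.21 (adjusted p = 3.85e-05), MXI1 at -0.50 ± 0.08 (8.33e-05), MAX at -0.19 ± 0.06 (0.0167) and MXD4 at -0.38 ± 0.13 (0.0322), the latter with overlapping libraries. The MAX call was lost without F2 DMSO replicate 2 or 3 (-0.17 and -0.18, adjusted p = 0.0706 and 0.0534), and the MXD4 call without those libraries (-0.30 and -0.38, 0.129 and 0.0699) or E1 DMSO replicate 3 (-0.16, 0.185).

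Under tazemetostat more members were called between each clone and WT than with DMSO, and so were more of all tested genes. In E1, 7 of 9 (6 of 8 without MYCN) differed from WT, 2 higher and 5 lower, where 51.8% of genes were called, 25.0% higher and 26.9% lower. In F2, 5 of 9 did, 1 higher and 4 lower, where 53.1% were called, 25.1% higher and 27.9% lower. The total in F2 lies near that share. With a log2 change of at least 1 also required, MYCN was called in E1, where 11.3% of genes were, and MXD3 in F2, where 12.3% were. MAX, MXD1, MXD4 and MXI1 were lower than in WT in both clones. The share of all tested genes lower in both clones, or without overlap of libraries, is not given here. Nothing particular to the members is therefore read from these 4 genes.

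MXD1 was lower, at -0.59 ± 0.08 in E1 and -0.47 ± 0.08 in F2 (limma, adjusted p = 5.32e-06 and 6.74e-05), and MXD4 at -0.82 ± 0.13 and -0.46 ± 0.13 (4.59e-05 and 0.00731). MAX was lower, at -0.31 ± 0.06 and -0.41 ± 0.06 (0.00026 and 1.2e-05), and MXI1 at -0.45 ± 0.08 and -0.29 ± 0.08 (0.00012 and 0.00583). For each of these 4 genes no clone library overlapped a WT library under drug. With libraries scaled to the same total the F2 difference of MAX was -0.26, and the calls of MXD4 (-0.31, adjusted p = 0.0679) and MXI1 (-0.14, 0.133) were lost. Both clones share the WT libraries in these comparisons.

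MXD3 was again higher in F2 than in WT under drug, by 1.09 ± 0.21 (limma, adjusted p = 0.00032), and its response there did not differ from that of WT past the threshold (-0.03, 95% interval -0.66 to 0.61). In E1 its difference of 0.16 ± 0.21 was not called, though it was after GC centring (0.45, adjusted p = 0.00578). MYC was higher in E1 than in WT by 0.22 ± 0.07 (adjusted p = 0.0175), a call lost without E1 tazemetostat replicate 1 (0.19, 0.0599), and by 0.34 after GC centring. In F2 the MYC difference of 0.17 ± 0.07 was not called (adjusted p = 0.055), although the libraries did not overlap and it was called with edgeR and DESeq2 on the recovered reads (0.0402 and 0.0334), with libraries scaled to the same total (0.32, 0.0011) and after GC centring (0.23, 0.000265). MGA was higher in E1 by 0.32 ± 0.12 (adjusted p = 0.0372), which was lost without any 1 of 5 of the 6 libraries compared (all but E1 tazemetostat replicate 2; adjusted p from 0.0613 to 0.103) and after GC centring (0.21, 0.137).

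MYCN gave the widest gap between lines. The 91 reads in WT and 99 reads in F2 with tazemetostat stood against 7 in E1, which after scaling by the size factors is a ratio of 13.6 for WT over E1 (95% interval 6.35 to 34.8, counting error only) and 13.8 for F2 over E1 (6.47 to 35.3). The log2 difference was -3.29 for E1 against WT and -3.32 for E1 against F2 (limma with no filter on low values, adjusted p = 1.96e-07 and 4.8e-07), and 0.03 for F2 against WT. Under the filter MYCN was tested only because these WT and F2 libraries are high, so the adjusted p-values printed are those without the filter. Counts of called members that include MYCN, and the intervals in the figures, come from the filtered fit. Between the clones under drug, 3 of 9 members (2 of 8 without MYCN) were called, all lower in E1, where 34.5% of genes were called, 17.9% higher and 16.6% lower, and 6.82% with a log2 change of at least 1, which MYCN met. Besides MYCN these were MXD3 at -0.93 ± 0.21 (0.00257) and MXD4 at -0.37 ± 0.13 (0.0397). The MXD4 call was lost without E1 tazemetostat replicate 2 or 3 or without any 1 of the F2 tazemetostat libraries, with adjusted p between 0.0622 and 0.183, and GC centring gave -0.19.

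**Figure D3:**
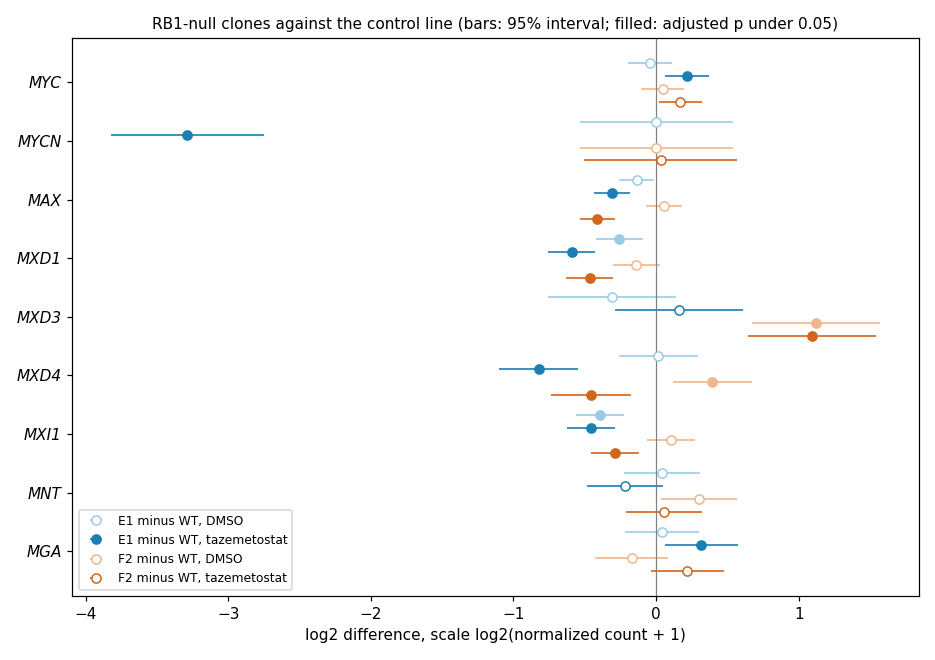
Log2 difference of each RB1-null clone from WT (x axis, log2 scale of normalized count + 1), pale for DMSO and dark for tazemetostat, with 95% intervals and filled points where the adjusted p was under 0.05. Under drug MAX, MXD1, MXD4 and MXI1 lie to the left in both clones and MYCN in E1 is at -3.29, while MXD3 in F2 is at 1.12 with DMSO and 1.09 with tazemetostat.

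The third comparison tested the responses against each other, as the difference between their log2 changes. MXD4 responded less in both clones than in WT, where it rose. The difference was -0.84 ± 0.19 for E1 minus WT and -0.85 ± 0.19 for F2 minus WT (limma, adjusted p = 0.0019 and 0.00231), and both calls held in every alternative apart from the size limit. For E1 minus WT, 3 of 9 members (2 of 8 without MYCN) were called, all lower, where 35.4% of genes were called, 17.2% higher and 18.2% lower. For F2 minus WT it was 4 of 9, all lower, where 26.9% were, 13.7% higher and 13.2% lower. With a log2 difference of at least 1 also required, MYCN was called for E1 minus WT, where 10.0% of genes were, and no member for F2 minus WT, where 7.48% were. The 2 differences share the WT libraries.

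MAX responded less in F2 than in WT, at -0.47 ± 0.08 (limma, adjusted p = 0.000388), and this call also held in every alternative apart from the size limit. In E1 the difference from WT, -0.17 ± 0.08 (95% interval -0.35 to 0.00), was not called. MXI1 responded less in F2, at -0.39 ± 0.11 (adjusted p = 0.016), a call lost without F2 tazemetostat replicate 3 (-0.34, 0.0509) and with libraries scaled to the same total (-0.26, 0.0731). MXD1 differed by -0.33 ± 0.11 in both clones (adjusted p = 0.0259 in E1 and 0.0347 in F2). The E1 call was lost without WT DMSO replicate 1, WT tazemetostat replicate 1, E1 DMSO replicate 3 or E1 tazemetostat replicate 1 (adjusted p from 0.0514 to 0.0737). The F2 call was lost without any 1 of 10 of the 12 libraries, all but WT tazemetostat replicate 3 and F2 tazemetostat replicate 1 (0.0504 to 0.097). Scaling libraries to the same total ended both MXD1 calls (-0.25 and -0.20, adjusted p = 0.0793 and 0.162).

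The MYCN response was lower in E1 than in WT and F2, at -3.29 and -3.32 (limma with no filter, adjusted p = 3.42e-05 and 7.79e-05). With 0 reads in every DMSO library these values restate the difference in treated levels and depend on the pseudocount. Neither difference was called by edgeR (adjusted p = 0.9999 and 1.0) or DESeq2 (0.0962 and 0.209), although both called the level difference under drug. Between the clones 2 of 9 members (1 of 8 without MYCN) were called, where 14.8% of genes were, 6.16% higher and 8.60% lower, and 5.81% with a log2 difference of at least 1, which MYCN met. They were MYCN, and MAX with a larger rise in E1, by 0.29 ± 0.08 (adjusted p = 0.0231). The MAX call was lost without E1 tazemetostat replicate 3, F2 DMSO replicate 2 or F2 tazemetostat replicate 2 or 3 (0.26 to 0.27, adjusted p from 0.0632 to 0.0739). The MYC response of E1 minus WT, 0.26 ± 0.10, was not called (adjusted p = 0.0546) but was with libraries scaled to the same total (0.35, 0.0115), after GC centring (0.39, 8.8e-05) and without E1 DMSO replicate 1 (0.32, 0.024) or 2 (0.28, 0.0496). The MXD3 response was not called for E1 minus WT (0.47 ± 0.30, adjusted p = 0.243) or E1 minus F2 (0.49 ± 0.30, 0.326), but both were after GC centring (0.77 and 0.67, 0.00214 and 0.0109), and the first without E1 DMSO replicate 2 (0.73, 0.042).

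**Figure D4:**
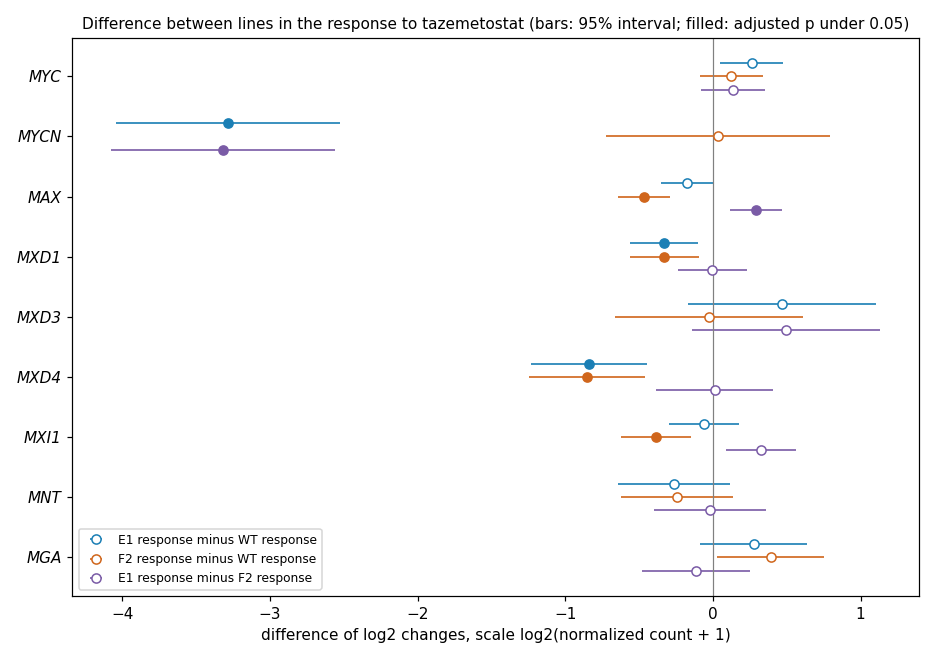
Difference between lines in the log2 change with tazemetostat (x axis) for each member, with 95% intervals and filled points where the adjusted p was under 0.05. MXD4 is at -0.84 and -0.85 for the clones minus WT and at 0.01 between the clones, and MYCN is near -3.3 wherever E1 is compared.

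Genes with the most similar pattern were looked up for MYCN, MXD3 and MXD4, the members with the widest range of group means, by Pearson correlation over the 18 libraries among 12976 genes with a mean of at least 50. The libraries share 6 groups, so these values are descriptions. MYCN was most like TNS3, a focal adhesion protein (r = 0.992), and CCL2, a chemokine (0.987). CCL2 was at 0 in each DMSO group and at 1423 ± 101 in WT, 31.8 ± 5.13 in E1 and 719 ± 69.6 in F2 with tazemetostat. MXD3 was most like SAMD11 (0.978), CROCC, a ciliary rootlet protein (0.970), and FUZ, a planar polarity gene (0.970). MXD4 was most like SHARPIN, a subunit of a ubiquitin ligase (0.971), GAS2L1 (0.953) and RAB3IL1 (0.950). Spearman's rho over the 6 group means ran from 0.880 to 1 for these 8 genes. SHARPIN, GAS2L1 and RAB3IL1 each had its highest group mean in WT with tazemetostat.

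Other genes of the pathway were taken from lists of known partners and targets, chosen by function. Their counts with tazemetostat stand beside shares over all tested genes of 34.8% higher and 29.4% lower in WT, 27.1% and 19.7% in E1, and 29.0% and 23.2% in F2, and nothing particular to a list is read from a count. Of the remaining factors of the network, MYCL, the third MYC gene, was lower in E1 than in WT with DMSO, at a log2 difference of -0.86 ± 0.10 (limma, adjusted p = 4.09e-06), at 185, 189 and 213 counts against 351, 325 and 392. It did not change with tazemetostat past the threshold in any line. MLX, the MAX-like partner of the glucose sensors MLXIP and MLXIPL, fell, with a log2 change of -0.20 ± 0.06 in E1 and -0.17 ± 0.06 in F2 (adjusted p = 0.00741 and 0.0217). Its known targets ARRDC4 and TXNIP rose in all 3 lines. ARRDC4 rose by 1.94 ± 0.07 in WT, with 1.19 ± 0.07 for E1 and 1.06 ± 0.07 for F2, and TXNIP, which restrains glucose uptake, by 4.28 ± 0.28, 1.05 ± 0.28 and 3.07 ± 0.28 in the same order. TXNIP responded less than in WT in both clones, at -3.23 ± 0.39 in E1 and -1.21 ± 0.39 in F2 (5.17e-06 and 0.0298).

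Of 13 cofactors of MYC, tazemetostat raised 1 and lowered 4 in WT, raised 2 in E1 and raised 3 in F2 (with libraries scaled to the same total, 1 rose and 1 fell in E1). CDK9, a kinase that releases paused polymerase, rose by 0.63 ± 0.08 in WT, and ACTL6A, a shared subunit of chromatin complexes, fell, with a log2 change of -0.65 ± 0.09. Of 6 genes of the SIN3 deacetylase complex that MXD proteins and MNT recruit, 1 rose and 3 fell in WT, 1 rose and 1 fell in E1, and 3 fell in F2. With libraries scaled to the same total this was 1 and 5, 0 and 3, and 0 and 3. In WT SIN3A fell, with a log2 change of -0.50 ± 0.07, and SIN3B rose by 0.48 ± 0.10, while HDAC1 fell in each line (WT -0.46 ± 0.07, E1 -0.36 ± 0.07, F2 -0.64 ± 0.07). Of 13 genes that control the stability of MYC or MYCN protein, 4 rose and 7 fell in WT, 5 rose and 3 fell in E1, and 4 rose and 3 fell in F2 (2 and 8 in WT and 4 and 3 in E1 with libraries scaled to the same total). The 4 rises in WT, the 3 falls in E1 and both counts in F2 lie near the shares over all tested genes. PIM1, a kinase that stabilises MYC, was raised in WT, E1 and F2 by 1.07 ± 0.06, 0.57 ± 0.06 and 0.89 ± 0.06. SKP2, a ubiquitin ligase subunit, fell, with a log2 change of -0.97 ± 0.07, -0.38 ± 0.07 and -0.60 ± 0.07.

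MGA works in PRC1.6, and of 10 partners there 2 rose and 7 fell in WT, 3 rose and 4 fell in E1, and 2 rose and 3 fell in F2. The median log2 change was -0.22, -0.05 and -0.12, beside 0.03, 0.02 and 0.02 over all tested genes. CBX3 fell in each line (WT -1.13 ± 0.10, E1 -0.42 ± 0.10, F2 -0.77 ± 0.10), and RNF2, the ubiquitin ligase of the complex, rose by 0.28 ± 0.08, 0.35 ± 0.08 and 0.21 ± 0.08. With libraries scaled to the same total, no partner rose in WT. Of 13 germline genes that PRC1.6 is known to silence, 3 were expressed enough to test, of which 1 fell in WT, none was called in E1 and 1 rose in F2.

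Genes commonly listed as MYC targets moved in both directions. Of 34 ribosome biogenesis genes, 7 rose and 11 fell in WT, 12 rose and 3 fell in E1, and 17 rose and 4 fell in F2, with median log2 changes of -0.02, 0.11 and 0.22. Over all tested genes 34.8% rose and 29.4% fell in WT, 27.1% and 19.7% in E1, and 29.0% and 23.2% in F2. UTP20, a processome subunit, rose by 0.46 ± 0.07 in E1 and 0.54 ± 0.07 in F2, and FBL, the nucleolar methyltransferase, fell, with a log2 change of -1.08 ± 0.07, -0.27 ± 0.07 and -0.51 ± 0.07 in WT, E1 and F2. The split moved with the scaling: with libraries scaled to the same total it was 3 and 16 in WT, 6 and 6 in E1 and 16 and 5 in F2. Of 32 metabolic and translation genes, 6 rose and 12 fell in WT, 4 rose and 6 fell in E1, and 9 rose and 7 fell in F2; scaled to the same total this was 5 and 20, 3 and 10, and 8 and 9. The F2 counts of this list lie near the shares over all tested genes. SLC7A5, a carrier of large neutral amino acids, rose by 1.27 ± 0.12, 1.11 ± 0.12 and 1.56 ± 0.12, and HK2, a hexokinase, by 0.81 ± 0.07, 0.69 ± 0.07 and 1.07 ± 0.07.

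Of 10 MYC targets of the cell cycle, 9 fell and CCND2 rose in WT. In E1, 2 rose and 5 fell, and in F2, 2 rose and 6 fell. CDCA7 fell, with a log2 change of -1.59 ± 0.07 in WT, and CCND2, a D-type cyclin, went from 30.0 ± 0.629 to between 10767 and 11550 counts there. Of 10 general proliferation genes, all 10 fell in WT, with a median of -1.41, whereas 1 rose and 2 fell in E1 (0 and 3 with libraries scaled to the same total) and 1 rose and 4 fell in F2. Their responses were higher than in WT for 10 of 10 in each clone, where 17.2% of all tested genes were higher for E1 minus WT and 13.7% for F2 minus WT. The part of this shift in proliferation in the WT changes of MYC, MXD3, MXD4 and the other members was not tested. Of 6 genes that MYC is known to repress with ZBTB17, 4 rose and 1 fell in WT and in F2, and 3 rose and 1 fell in E1. CDKN2B, an inhibitor of CDK4 and CDK6, was raised in WT, E1 and F2 by 3.26 ± 0.09, 2.71 ± 0.09 and 3.40 ± 0.09. NDRG1, a stress and differentiation gene, had 0 reads in every DMSO library and reached 1214 ± 41.4, 53.4 ± 11.2 and 201 ± 7.75 counts.

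**Figure D5:**
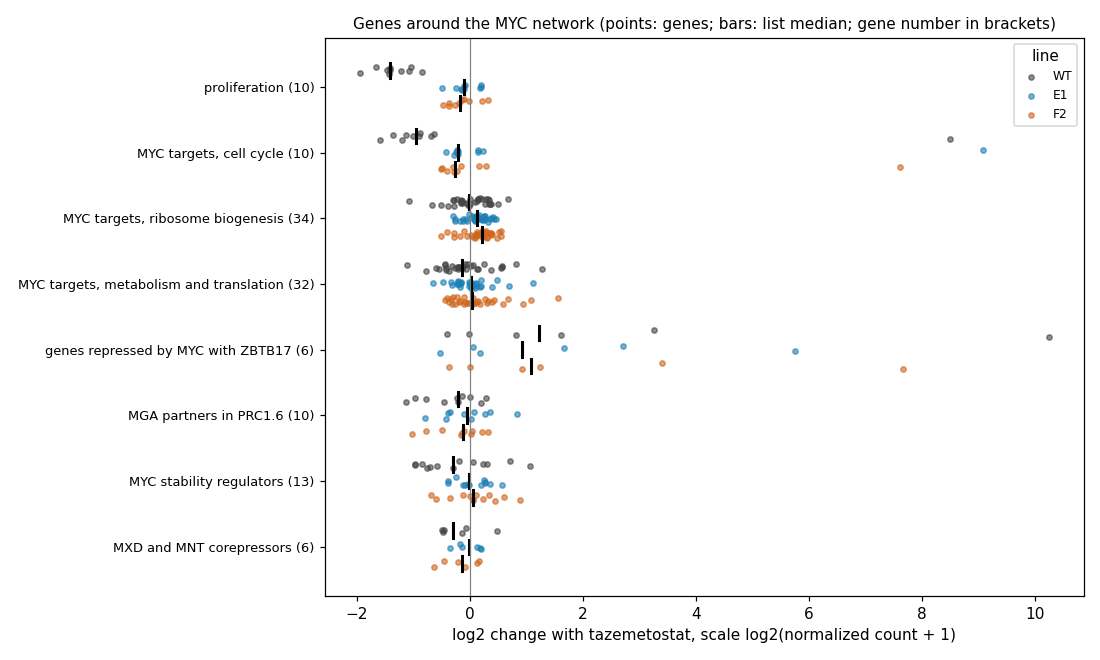
Log2 change with tazemetostat (x axis, log2 scale of normalized count + 1) of each tested gene in 8 lists around the MYC network, 1 point per gene, with a bar at the list median for WT, E1 and F2. Proliferation genes have a median of -1.41 (WT), -0.11 (E1) and -0.17 (F2), while the ribosome biogenesis targets have medians of -0.02, 0.11 and 0.22 in WT, E1 and F2.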

How the data were processed

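The 9 genes and all gene lists were chosen with earlier results of these data known. RNA was poly(A)-selected and prepared with a stranded Illumina kit for paired-end sequencing, per the labels' protocols. The deposited table holds 55765 gene symbols in 18 libraries, and its unit is a signal that the authors obtained by dividing read counts by 1 factor for each library. Multiplying by the factor gave whole reads for 100% of values (tolerance 0.001), and the factors, 0.812 to 1.145, equal median-of-ratios size factors. The submitters' processing notes list Trim Galore 0.4.4, STAR 2.6.0a, HTSeq, DESeq2 and hg19. The annotation and the strand setting are not given in the sources used here.

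Tests used limma 3.58.1 (R 4.3.3) on log2(value + 1) with a mean-variance trend, with all 6 groups fitted together and no replicate block, for genes with a mean of at least 10, with Benjamini-Hochberg adjustment over 16154 genes per contrast. That scale understates changes of low genes. Where all DMSO libraries were at 0 reads, folds are lower bounds against 3 reads per library; floors and intervals cover counting error only, since copies from PCR were not told apart. All 9 members are named; from each other list, up to 2 rises and 2 falls that were largest among called genes with a mean of at least 50. A few further genes (MYCL, PVT1, MYCNOS and members of lists repeated across lines) were named after their values were seen.

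Alternatives were pseudocounts of 0.5 and 5, no filter, a mean of at least 50, a log2 change of at least 1, scaling to the same total or by TMM, only the groups of a contrast, the replicate number as a block, edgeR 4.0.16 and DESeq2 1.42.0 on the recovered reads, each library left out and, added after seeing the data, GC centring over the 84.0% of tested genes with a GC value. The titles use the same replicate numbers in every group. Deviations of same-numbered libraries correlated at 0.108 to 0.375 for F2 against WT with DMSO, the comparison in which every pair was over 0.1. No 2 libraries held identical values. On simulated counts of 16154 genes, limma recovered 73.5%, 95.5% and 100% of genes changed by 0.5, 1 and 2 (log2) for tazemetostat in WT, with 4.79% of calls false, and 41.2%, 84.8% and 100% for the response difference of E1 and WT, with 4.46% false. The simulated counts were drawn independently, without the GC trends of the E1 libraries, and few genes were changed. The false shares therefore need not hold for these data. Promoter windows came from RefSeq (GRCh38.p14) and lengths and GC from GENCODE v29, matched by symbol. One result of the search for similar patterns is not reported here. Figures used matplotlib 3.10.9 in Python 3.11.15.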

Additional observations from a re-analysis of the deposited data

Results flagged for a closer look

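The tazemetostat response was called different between lines, by a limma test of the difference of log2 changes, for 9 combinations of member and line pair. For E1 minus WT, where 35.4% of all tested genes were called, these were MYCN at -3.29, MXD4 at -0.84 and MXD1 at -0.33. For F2 minus WT, where 26.9% were, they were MXD4 at -0.85, MAX at -0.47, MXI1 at -0.39 and MXD1 at -0.33. For E1 minus F2, where 14.8% were, they were MYCN at -3.32 and MAX at 0.29. Only the MXD4 calls and the MAX call of F2 minus WT held in every alternative apart from the size limit. The MYCN values restate the difference in treated levels, since all DMSO libraries had 0 reads. MYCN passed the filter only through its treated WT and F2 libraries. Its calls held with no filter on low values, but neither edgeR nor DESeq2 called either MYCN difference.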

How the results depend on the processing

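Of 108 values (9 members in 12 comparisons), 51 were called, and 31 of these kept the call under every alternative other than the limit of a log2 change of at least 1. No called value changed sign. With that limit the count of members called was 2, 1 and 2 for tazemetostat in WT, E1 and F2, 0 and 1 for E1 and F2 against WT with DMSO, 1 and 1 with tazemetostat, 1 and 1 for E1 against F2 with DMSO and tazemetostat, and 1, 0 and 1 for the response differences E1 minus WT, F2 minus WT and E1 minus F2. With only the groups compared in the fit, 0 members were called for E1 against WT with DMSO (over all genes, 1601 calls in place of 3740), 2 for E1 against F2 with DMSO (3035 in place of 5997) and 1 for the response of E1 minus F2. Without a filter, 1 member was called for F2 against WT with DMSO. For the response of E1 minus F2, 1 was called with a mean of at least 50, where MYCN was not tested, and 1 each with edgeR and DESeq2. Scaling to the same total gave 5 for E1 against F2 with tazemetostat, and GC centring gave 5 there, 5 for E1 minus WT and 5 for E1 minus F2.

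Leaving out 1 library gave 6 to 8 members for tazemetostat in WT, 6 to 7 in E1 and 4 to 5 in F2; 1 to 2 and 6 to 7 for E1 against WT with DMSO and tazemetostat; 1 to 3 and 5 to 6 for F2 against WT; 2 to 5 and 2 to 4 for E1 against F2; and 2 to 5, 2 to 5 and 1 to 3 for the response differences. Over all genes, calls went from 3260 to 2141 for F2 against WT with DMSO without WT DMSO replicate 2, and from 2384 to 3865 for E1 minus F2 without E1 DMSO replicate 3. Where an arm had 2 libraries left, the spread was pooled over all groups.

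Scaling to the same total moved the median of all genes from 0.03 to -0.12 for tazemetostat in WT, from 0.00 to 0.14 for F2 against WT with tazemetostat and from 0.01 to 0.13 for F2 minus WT. The share of calls that were higher went from 54.2% to 41.7%, from 47.4% to 64.6% and from 51.0% to 70.9% there, from 48.5% to 61.4% for E1 minus WT and from 51.8% to 35.9% for E1 against F2 with tazemetostat. The replicate block changed 1 call, MNT in WT (adjusted p = 0.0512). Outside F2 against WT with DMSO the numbers did not pair: correlations ran from -0.244 to 0.315, and in no comparison did every library correlate best with its own number, as a hint from the data. The causes of these shifts were not tested.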

Other observations

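MIR17HG, the host gene of a microRNA cluster that MYC and E2F factors are known to activate, was not among the members. It went from 51.8, 36.7 and 49.7 to 135, 129 and 91.4 normalized counts with tazemetostat in E1 and from 67.6, 45.6 and 81.3 to 94.2, 113 and 127 in F2, while in WT it was at 62.0, 49.95 and 77.6 with DMSO and 34.5, 29.9 and 64.0 with tazemetostat. Treated libraries lay above untreated ones in both clones and the WT groups overlapped. The log2 change was 1.34 ± 0.27 in E1 and 0.80 ± 0.27 in F2 (limma, adjusted p = 0.000455 and 0.0191). Its response was higher than in WT by 1.95 ± 0.38 in E1 and 1.41 ± 0.38 in F2 (adjusted p = 0.00067 and 0.0107).

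AURKA, the kinase that shields MYCN protein from degradation, fell in WT from 3292, 3343 and 2959 to 2005, 1992 and 1846 normalized counts. In E1 it went from 3483, 3511 and 3778 to 3884, 4561 and 4279, and in F2 from 3412, 3306 and 2972 to 4181, 4018 and 4065. Its response was higher than in WT by 0.95 ± 0.10 in E1 and 1.06 ± 0.10 in F2 (limma, adjusted p = 8.3e-07 and 3.93e-07).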
